A study of Saccharomyces cerevisiae with 2 samples.

Results

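The mRNAs of 6 G1 cyclins of *Saccharomyces cerevisiae* were examined in RNA-seq read densities of a strain lacking Xrn1p and Trf4p and of a strain lacking Trf4p alone. The 6 genes are *CLN1* (YMR199W), *CLN2* (YPL256C), *CLN3* (YAL040C), *PCL1* (YNL289W), *PCL2* (YDL127W) and *PCL9* (YDL179W), out of 9633 transcripts and 5775 nuclear ORFs in the table. They were chosen by name as a family, with the ratio between these libraries already known and *PCL1* already seen among the highest ratios, so the ratios below are a description and carry no test. The *xrn1*∆ *trf4*∆ strain lacks Xrn1p, the main cytoplasmic exoribonuclease that degrades RNA 5′ to 3′, together with Trf4p, a nuclear poly(A) polymerase of TRAMP, and the *trf4*∆ strain lacks only Trf4p. Both are BY4741 derivatives and were grown as exponential asynchronous cultures in YPD, so each library mixes cells of all cell cycle stages. There was 1 culture and 1 library per strain, so no difference between the strains has a replicate check. WT and *xrn1*∆ libraries were not analysed here.

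G1 cyclins are short-lived activators of cyclin-dependent kinases that drive budding yeast through Start, the point at which a cell commits to a new division. Cln3p with the kinase Cdc28p relieves the repressor Whi5p from the transcription factor SBF, made of Swi4p and Swi6p, and SBF and the related MBF then switch on *CLN1*, *CLN2*, *PCL1*, *PCL2* and a set of S phase genes. Cln1p and Cln2p bind Cdc28p and promote bud emergence, and they also feed back on their own transcription. Pcl1p, Pcl2p and Pcl9p instead bind the kinase Pho85p, with roles in polarized growth, and *PCL9* is known as an early G1 gene that depends on the transcription factor Swi5p.

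The upstream sequences are shown because these factors are known to act through short DNA elements. In the 800 bases before each start codon of the R64 assembly, both strands were searched for CACGAAA or CGCGAAA (the SBF element, SCB), ACGCGT (the MBF element, MCB) and ACCAGC (the Swi5p element). The SCB letters were found in 17.1% of the 5762 ORFs with a full window, the MCB letters in 7.67% and the Swi5p letters in 23.6%. *CLN2* and *PCL1* held 3 SCB matches each, a number reached by 0.278% of ORFs, and *PCL2* held 2, a number reached by 1.89%. *CLN1* held 1 SCB and 1 MCB match. *PCL9* and *PCL2* held 2 Swi5p matches each, a number reached by 3.05% of ORFs. None of these letters occurred in the *CLN3* window, and a match is a description, not a site, while no match says only that these letters are not in this window. The windows of *PCL1* and *PCL9* reach into the upstream ORF, which ends 656 and 751 bases before the member, but all their matches lie nearer than that. The stretches are given 5′ to 3′ on the strand of the gene, with the matches of the named element in capitals, and the matches of different elements did not overlap. The first 3 stretches hold SCB matches in *CLN2*, *PCL1* and *PCL2*, the next holds the MCB match of *CLN1*, and the last holds the Swi5p matches of *PCL9*.
CLN2, chrXVI:67135-67231, minus strand: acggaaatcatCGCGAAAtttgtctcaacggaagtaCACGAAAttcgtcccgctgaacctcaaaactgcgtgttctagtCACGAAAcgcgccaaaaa
PCL1, chrXIV:87559-87620, plus strand: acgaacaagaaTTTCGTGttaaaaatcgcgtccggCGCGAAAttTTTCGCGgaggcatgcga
PCL2, chrIV:234523-234574, plus strand: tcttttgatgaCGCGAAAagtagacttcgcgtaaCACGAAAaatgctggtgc
CLN1, chrXIII:662027-662054, plus strand: gcctgcaagagACGCGTtcaaggaagaa
PCL9, chrIV:137955-138026, plus strand: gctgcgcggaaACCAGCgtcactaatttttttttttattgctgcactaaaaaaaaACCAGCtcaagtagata

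The libraries were checked before the members were compared. *TRF4* (listed in R64 as *PAP2*) had 1 read in *xrn1*∆ *trf4*∆ and 0 in *trf4*∆, where 3 reads would be a density of 0.00171. *XRN1* had 111 reads in *xrn1*∆ *trf4*∆ and 7272 in *trf4*∆. *LEU2*, *MET15* and *URA3*, deleted in BY4741, had 0 reads in both libraries, and *HIS3*, deleted there in part, had 1050 and 353 reads in *xrn1*∆ *trf4*∆ and *trf4*∆. The summed density of 4 MATa genes was 21.0 reads per nucleotide in *xrn1*∆ *trf4*∆ and 14.1 in *trf4*∆, and that of 3 MATalpha genes 0.0781 and 0.141 in the same order of strains. BY4741 is a MATa strain. Whole reads were recovered from the densities, and 12121664 ORF reads were counted in *xrn1*∆ *trf4*∆ and 7455598 in *trf4*∆. All intervals are exact 95% intervals of these reads. They cover counting error only, with each read taken as a separate molecule. PCR copies of a molecule cannot be recognized in these reads, so the intervals may be too narrow even for that.

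Each member is a single uninterrupted coding exon that overlaps no other gene in R64, and each had reads in both libraries. The genes lie on chromosome XIII from 662644 to 664284 (*CLN1*), on chromosome XVI from 64977 to 66614 (*CLN2*), on chromosome I from 65778 to 67520 (*CLN3*), on chromosome XIV from 87897 to 88736 (*PCL1*), and on chromosome IV from 234927 to 235853 (*PCL2*) and from 138291 to 139205 (*PCL9*). All positions at which a read of 50 nt can start within these ORFs are unique in R64, also with up to 3 mismatches, so no stretch of this length is shared between *CLN1* and *CLN2* or between *PCL1* and *PCL2*. Counting is not stated to use the strand, so reads from antisense RNA cannot be told apart from those of the gene.

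All 6 G1 cyclin mRNAs had a higher density in *xrn1*∆ *trf4*∆ than in *trf4*∆, from 2.92-fold for *CLN3* to 13.5-fold for *PCL1*. In an asynchronous culture a larger share of cells holding an mRNA and more of that mRNA per cell cannot be told apart. *CLN3*, the upstream activator of Start, had 1.02 normalized reads per nucleotide in *xrn1*∆ *trf4*∆ (2839 reads) and 0.349 in *trf4*∆ (608 reads). Its log2 ratio of 1.55 (95% interval 1.42 to 1.68) was the smallest of the 6. *CLN2*, the most abundant of the CLN mRNAs in both libraries, had 2.64 reads per nucleotide in *xrn1*∆ *trf4*∆ (6895 reads) and 0.539 in *trf4*∆ (883 reads). Its log2 ratio was 2.29 (2.19 to 2.39). *CLN1*, its close relative, stood at a lower level in both libraries, with 0.890 reads per nucleotide in *xrn1*∆ *trf4*∆ (2332 reads) and 0.196 in *trf4*∆ (322 reads). The *CLN1* log2 ratio of 2.18 (2.01 to 2.35) lay close to that of *CLN2*.

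Among the cyclins of Pho85p, *PCL1* stood apart. It had 5.05 reads per nucleotide in *xrn1*∆ *trf4*∆ (6772 reads) and 0.374 in *trf4*∆ (314 reads), a log2 ratio of 3.76 (95% interval 3.59 to 3.92). It was the highest of the 6 in *xrn1*∆ *trf4*∆ but not in *trf4*∆, and its log2 ratio ranked 8th of 5638 ORFs. *PCL2*, which shares its known function in late G1, had 0.705 reads per nucleotide in *xrn1*∆ *trf4*∆ (1043 reads) and 0.163 in *trf4*∆ (151 reads). Its log2 ratio was 2.11 (1.87 to 2.37), well under that of *PCL1*. *PCL9*, the early G1 member, had 0.628 reads per nucleotide in *xrn1*∆ *trf4*∆ (918 reads) and 0.157 in *trf4*∆ (144 reads), and its log2 ratio was 2.0 (1.74 to 2.26). *PCL2* and *PCL9* had the lowest densities of the 6 mRNAs, although in *trf4*∆ *PCL2* was not separated from *CLN1* beyond counting error.

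**Figure D1:**
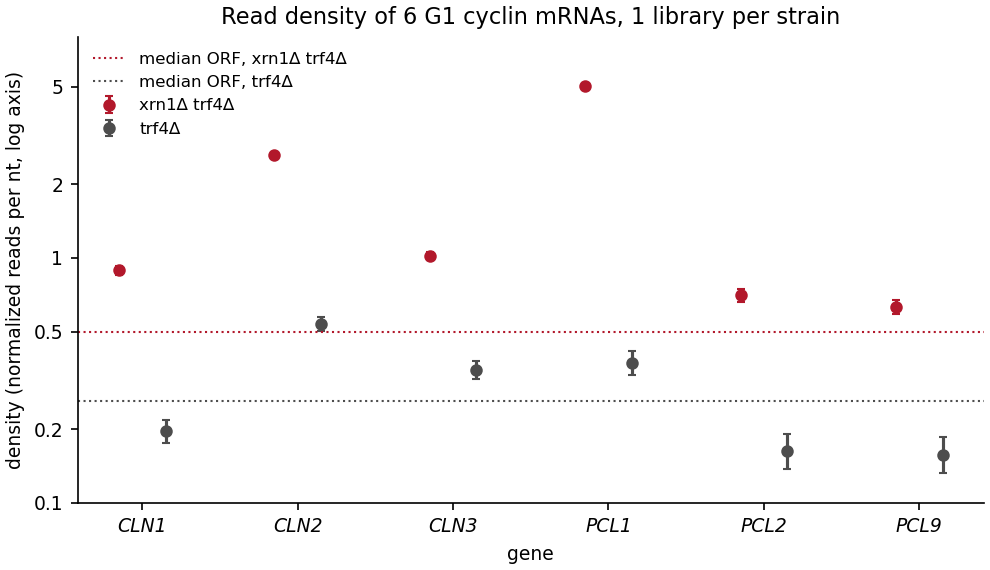
Read density of each G1 cyclin mRNA in normalized reads per nucleotide on a log axis, with *xrn1*∆ *trf4*∆ in red on the left of each pair and *trf4*∆ in grey on the right; bars are exact 95% counting intervals and dotted lines the median ORF of each library. All 6 genes lie higher in *xrn1*∆ *trf4*∆, and *PCL1* reaches 5.05 there against 0.374 in *trf4*∆.

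The order of the levels by density, which is per length, differed between the strains. The intervals do not cover differences between genes in how well their RNA is sequenced. A small gap within 1 library is therefore an order of densities and not a settled order of mRNA levels. In *xrn1*∆ *trf4*∆ it was *PCL1*, *CLN2*, *CLN3*, *CLN1*, *PCL2* and *PCL9*, and each gene exceeded the next beyond counting error, the closest neighbours being *PCL2* and *PCL9* with a ratio of densities of 1.12 (95% interval 1.03 to 1.23). In *trf4*∆ the order was *CLN2*, *PCL1*, *CLN3*, *CLN1*, *PCL2* and *PCL9*. There the intervals of 3 neighbouring pairs held 1, namely *PCL1* over *CLN3* (1.07, 0.932 to 1.23), *CLN1* over *PCL2* (1.2, 0.990 to 1.47) and *PCL2* over *PCL9* (1.04, 0.818 to 1.31), so these are not ordered at this depth. *PCL1* and *CLN2* changed places between the strains, *PCL1* being 1.92 times *CLN2* in *xrn1*∆ *trf4*∆ (1.85 to 1.98), while *CLN2* was 1.44 times *PCL1* in *trf4*∆ (1.27 to 1.65).

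The make-up of the 3 CLN and of the 3 PCL members moved with *CLN3* and *PCL1*. These shares do not depend on the scale between libraries. The other PCL genes are not in these sums. Among them *PCL5* had 2.22 reads per nucleotide in *xrn1*∆ *trf4*∆ and 1.74 in *trf4*∆. Of the summed density of the 3 PCL members, *PCL1* took 79.1% in *xrn1*∆ *trf4*∆ and 53.9% in *trf4*∆. *PCL2* took 11% and *PCL9* 9.85% in *xrn1*∆ *trf4*∆, against 23.5% and 22.7% in *trf4*∆. Of the summed density of the 3 CLN genes, *CLN3* took 22.4% in *xrn1*∆ *trf4*∆ and 32.2% in *trf4*∆. *CLN2* took 58.0% in *xrn1*∆ *trf4*∆ and 49.7% in *trf4*∆, and *CLN1* 19.6% and 18.1% in the same order of strains. Together the 6 genes held 20799 of the 12121664 ORF reads in *xrn1*∆ *trf4*∆ and 2422 of the 7455598 in *trf4*∆, and their summed density was 10.9 reads per nucleotide in *xrn1*∆ *trf4*∆ and 1.78 in *trf4*∆.

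**Figure D2:**
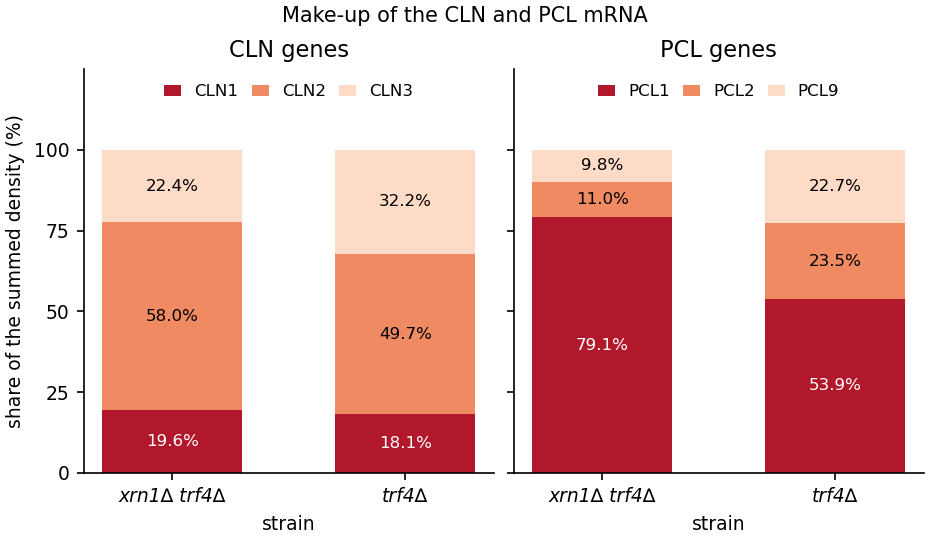
Share of each gene in the summed density of the CLN genes and of the PCL genes, in percent, with *xrn1*∆ *trf4*∆ as the left bar and *trf4*∆ as the right bar of each panel. *PCL1* makes up 79.1% of the PCL density in *xrn1*∆ *trf4*∆ and 53.9% in *trf4*∆, and *CLN3* 22.4% and 32.2% of the CLN density in the same order.

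The ratios were then set against each other in all 15 pairs, a comparison that no scaling alters. The log2 ratio of *PCL1* exceeded that of every other member beyond counting error, by 1.47 over *CLN2* (95% interval 1.27 to 1.66) up to 2.21 over *CLN3* (2.0 to 2.42). The ratio of *PCL1* was known to be among the highest when it was chosen, so its lead is a description only. *CLN3* lay below every other member, the nearest being *PCL9* with a difference of 0.45 (0.16 to 0.74). Between these, *CLN1*, *CLN2*, *PCL2* and *PCL9* formed 6 pairs, of which 5 had an interval that held 0. *CLN2* exceeded *CLN1* by 0.11 (-0.09 to 0.31), and *PCL2* exceeded *PCL9* by 0.12 (-0.25 to 0.48), so a difference was not detectable at this depth. The sixth pair, *CLN2* over *PCL9*, had a difference of 0.29 (0.0093 to 0.57), with a lower end close to 0. The 15 intervals are not adjusted for their number, so this pair is not a clear separation. Culture-to-culture spread is unknown and is not part of these intervals.

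Under the authors' normalization most ORFs (82.0%) were also higher in *xrn1*∆ *trf4*∆, and the members have to be read against that. The median log2 ratio was 2.15 over the 6 members, a 4.43-fold higher density, and 0.78 over the 5638 ORFs with reads in both libraries. All 6 members were at least 2-fold higher, where 40.1% of ORFs were. Of the 6, 4 were at least 4-fold higher (*PCL1*, *CLN2*, *CLN1* and *PCL2*), where 6.35% of ORFs were. *PCL9* fell just short of 4-fold, at 3.99-fold, and the counting intervals of *PCL2* and *PCL9* both held 4-fold. None of the 6 members was at least 2-fold lower, where 2.63% of ORFs were. The ranks of the log2 ratios among the 5638 ORFs, from the highest, were 8 for *PCL1*, 180 for *CLN2*, 234 for *CLN1*, 279 for *PCL2*, 361 for *PCL9* and 996 for *CLN3*. These values chose the members in part, so nothing is read from their distance to the background.

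The scale between the libraries sets the size of these folds and, for ORFs with smaller positive log2 ratios, also the direction. Scaling both libraries to the same median ORF density lowers every log2 ratio by the same amount, and 5 of the 6 members were then at least 2-fold higher, where 7.56% of ORFs were. Under this scaling *PCL1* had a log2 ratio of 2.82, *CLN2* of 1.35 and *CLN1* of 1.24. *PCL2* had 1.17 (95% interval 0.93 to 1.43) and *PCL9* 1.06 (0.80 to 1.32), and both intervals reached below 2-fold. *CLN3* had 0.61 (95% interval 0.48 to 0.74) and was the member that no longer reached 2-fold. All 6 were higher in *xrn1*∆ *trf4*∆ under each of the 4 scalings.

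**Figure D3:**
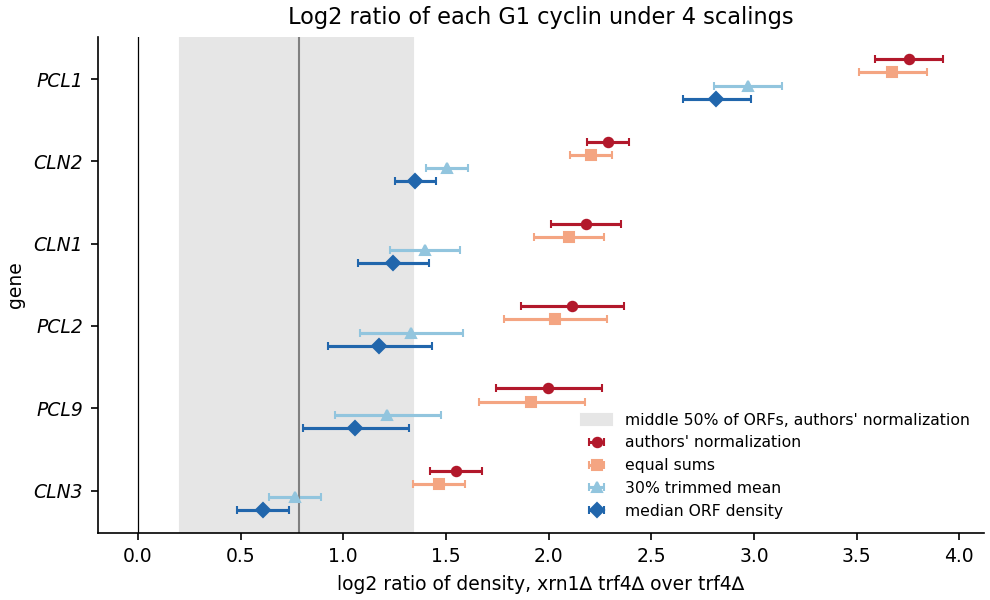
Log2 ratio of *xrn1*∆ *trf4*∆ over *trf4*∆ density for each member under 4 scalings between the libraries, with exact 95% counting intervals; the grey band and line are the middle 50% and the median (0.78) of ORFs under the authors' normalization and apply to the red points. *PCL1* lies highest and *CLN3* lowest under each scaling, and no point lies below 0.

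The median ratio was lower among abundant ORFs, so each member was also placed among ORFs of like abundance, in 10 groups of nearly equal size by mean log2 density. *PCL1* and *CLN2* belonged to group 9, counted from the least abundant, whose median log2 ratio was 0.33, the lowest median beside any member. *CLN3* belonged to a group with a median of 0.77 and *CLN1* in one with 0.88. *PCL2* and *PCL9* belonged to a group with a median of 0.99. Each member lay above the median of its own group, with its whole counting interval, but these ratios chose the members in part. The groups also use the mean of both libraries, so a high level in 1 library raises the group of a member. Nothing is read from these distances. *PCL1* moved furthest in the ranking of levels, with a density above 97.0% of ORFs in *xrn1*∆ *trf4*∆ and above 60.9% in *trf4*∆. *CLN2* stood above 91.8% and 70.3% of ORFs in *xrn1*∆ *trf4*∆ and *trf4*∆, and *CLN1* above 70.5% and 40.6%. For *CLN3* the shares were 74.9% and 59.0%, for *PCL2* 62.9% and 35.0%, and for *PCL9* 58.5% and 33.9%, in the same order of strains.

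**Figure D4:**
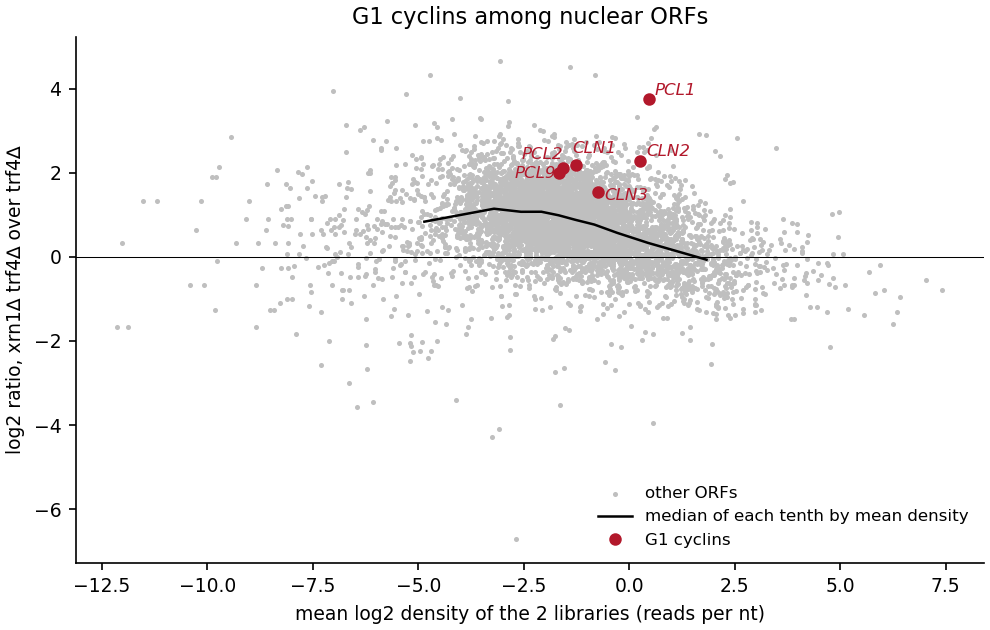
Log2 ratio of *xrn1*∆ *trf4*∆ over *trf4*∆ density against the mean log2 density of both libraries for 5638 nuclear ORFs (grey), with the 6 G1 cyclins in red and the median of each of 10 groups of ORFs by abundance as a black line. *PCL1* and *CLN2* lie where the black line has come down to 0.33, and all 6 members lie above the line.

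The list values that follow are under the authors' normalization, where 40.1% of ORFs were at least 2-fold higher and 2.63% at least 2-fold lower. Scaling to the median ORF adds -0.94 to each, which turns the smaller positive log2 ratios negative. The kinases of these cyclins had log2 ratios below the median of the members. *CDC28*, the kinase of the Cln proteins, had 1.0 reads per nucleotide in *xrn1*∆ *trf4*∆ and 0.400 in *trf4*∆, a log2 ratio of 1.32 (95% interval 1.15 to 1.49), an interval that overlaps that of *CLN3*. *PHO85*, the kinase of the Pcl proteins, had 0.328 in *xrn1*∆ *trf4*∆ and 0.216 in *trf4*∆, a log2 ratio of 0.60 (0.37 to 0.84) that was -0.33 (-0.56 to -0.10) with scaling to the median ORF and -0.18 with the trimmed mean, so its direction depends on the scaling. Of 6 kinase genes, partners and inhibitors, 2 were at least 2-fold higher (*CDC28* and the activating kinase *CAK1*, 1.22), 0 at least 2-fold lower, and the median was 0.70, near the ORF median of 0.78. *CKS1*, a Cdc28p subunit, had 0.59, *FAR1*, the inhibitor of Cln-Cdc28 in the pheromone response, 0.79, and *PHO81*, the inhibitor of Pho80p with Pho85p, 0.31.

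The 7 other Pho85p cyclins had a median log2 ratio of 1.72, with 5 at least 2-fold higher and 0 at least 2-fold lower. *PCL7* (2.01) and *PCL8* (1.93), which act in glycogen metabolism, had the highest ratios, close to those of *PCL2* and *PCL9*. *PHO80*, the cyclin of phosphate signalling, had 1.72. *PCL5*, which turns over Gcn4p, had 0.34 and *CLG1* 0.28, and their densities in *trf4*∆ were the highest of this list, 1.74 and 1.33 reads per nucleotide. Both belong to the same abundance group as *PCL1* and *CLN2*, with a median log2 ratio of 0.33.

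Among 11 regulators of Start the median log2 ratio was 1.60, with 9 at least 2-fold higher and 0 at least 2-fold lower. *MSA2* (2.88) and *NRM1* (2.85), a co-factor of SBF and MBF and a corepressor of MBF, had the highest ratios, *MSA2* from 375 reads in *xrn1*∆ *trf4*∆ and 32 in *trf4*∆. *SWI4*, the DNA-binding subunit of SBF, had 1.87 (95% interval 1.67 to 2.07). *WHI3*, which encodes an RNA-binding protein that restrains *CLN3* mRNA, had 1.27. *WHI5*, the repressor of SBF, had the lowest ratio, 0.53 (0.28 to 0.78), followed by *BCK2* with 0.73. The SCF ubiquitin ligase, which marks the Cln proteins for destruction, had a median of 0.72 over 6 genes, 2 of them at least 2-fold higher and 0 at least 2-fold lower. Its RING subunit gene *HRT1* had 2.15 and *CDC34*, the ubiquitin-conjugating enzyme, 1.08, while *GRR1*, the F-box protein for Cln1p and Cln2p, had 0.65, *CDC53* 0.53 and *SKP1* 0.28.

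The known targets of the G1 transcription factors showed a wide range. Of 20 other SBF and MBF targets, 13 were at least 2-fold higher and 0 at least 2-fold lower, with a median log2 ratio of 1.35, where 40.1% of ORFs were at least 2-fold higher. The S phase cyclin gene *CLB6* had 0.60 reads per nucleotide in *xrn1*∆ *trf4*∆ (1095 reads) and 0.0236 in *trf4*∆ (27 reads), and its log2 ratio of 4.67 (95% interval 4.12 to 5.27) was the highest of all 5638 ORFs. *YOX1*, a repressor of M/G1 genes, had 2.73. At the other end were *RNR1*, the large subunit of ribonucleotide reductase, with 0.43, and *POL1*, DNA polymerase alpha, with 0.39. Of 12 Swi5p and Ace2p targets, which are early G1 genes like *PCL9*, 6 were at least 2-fold higher and 0 at least 2-fold lower, with a median of 1.11, a count near the 40.1% of all ORFs. *CDC6*, which loads the replicative helicase, had 2.49 and *DSE1*, a daughter cell gene, 2.42, while *DSE2* had 0.33 and the chitinase gene *CTS1* -0.36, the only negative value of these 6 lists under the authors' normalization. With the median ORF at the same density in both libraries, the numbers at least 2-fold higher were 5 of the 20 SBF and MBF targets, 2 of the 12 Swi5p and Ace2p targets, 3 of the 11 Start regulators, 1 of the 7 other Pho85p cyclins, 1 of the 6 SCF genes and 0 of the 6 kinase genes, partners and inhibitors, where 7.56% of ORFs were. Log2 ratios above 0 then numbered 14 of 20, 6 of 12, 9 of 11, 5 of 7, 2 of 6 and 2 of 6 in these lists, and *CTS1*, at -1.30, was more than 2-fold lower. These lists describe stages of the cell cycle, and whether the share of cells in G1 differed between the cultures was not tested.

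**Figure D5:**
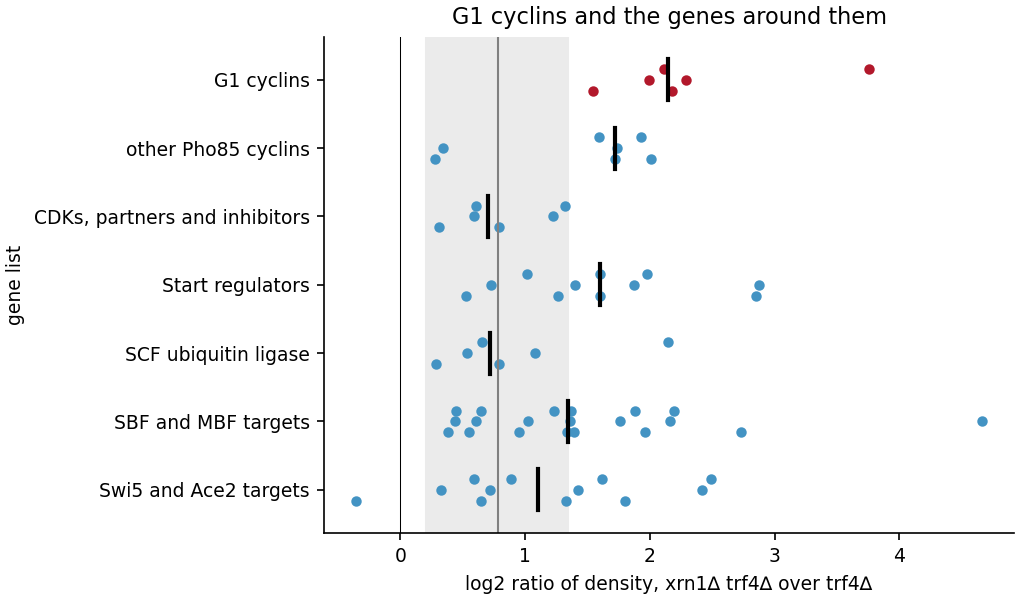
Log2 ratio of *xrn1*∆ *trf4*∆ over *trf4*∆ density for each gene (points) of the G1 cyclins and 6 related lists, with the median of each list as a black bar and the median and middle 50% of ORFs as the grey line and band. The G1 cyclins have a median of 2.15, the SBF and MBF targets 1.35 with *CLB6* at 4.67, and the kinase list 0.70.

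The ORF nearest to each member in the plane of the log2 densities of both libraries was found over these 2 libraries alone. *CLN3* lay next to *PEX8* (distance 0.015 log2 units), *PCL9* next to *MRPL1* (0.013), *PCL2* next to *MSL1* (0.063), *CLN1* next to *NRG1* (0.073) and *CLN2* next to *MOB1* (0.10). *PCL1* had no close neighbour, the nearest being *HXK1* at 0.49, with 3.6 reads per nucleotide in *xrn1*∆ *trf4*∆ and 0.361 in *trf4*∆. The ratio of *PCL1* was known to be among the highest when it was chosen, so this distance is no separate trait. Of the 12 protein-coding genes that flank the members, 6 were at least 2-fold higher in *xrn1*∆ *trf4*∆, near the 40.1% of all ORFs, and their median log2 ratio was 0.87. Next to *PCL1*, *RFC3* had 0.72 and *CAF40* 1.02, and next to *CLN2*, *BBP1* had 1.97 and YPL257W 1.22. Next to *CLN1*, *CIK1* had 1.84 and *ROT1* 0.72, and next to *CLN3*, *CYC3* had 0.65 and *CDC24* 1.46. *PCL2* lay between *VCX1* (-0.15) and *CDC48* (-0.82), both lower in *xrn1*∆ *trf4*∆, and *PCL9* between YDL180W (1.58) and *DLD2* (0.18). Each member had a higher ratio than the genes on either side of it, but the counting intervals of *CLN1* and *CIK1*, of *CLN2* and *BBP1*, of *CLN3* and *CDC24*, and of *PCL9* and YDL180W overlapped.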

How the data were processed

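RNA-seq of 1 *xrn1*∆ *trf4*∆ and 1 *trf4*∆ culture was used. The authors depleted rRNA from total RNA, read 50 nt by SOLiD sequencing and aligned with Bowtie (0.12.7, per the labels) to the S288c genome, allowing 3 mismatches. The authors deposited a coverage signal, the density of uniquely mapped reads per nucleotide of transcript, normalized on total ORF reads. Genome release and strand use in counting are not given in the sources used here. Both value columns were used.

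Density times R64 gene length gave whole reads within 0.01 for 5738 of 5770 ORFs (99.4%), 1 read being worth 1 in *trf4*∆ and 0.626 in *xrn1*∆ *trf4*∆. The median ORF had 978.5 reads in *xrn1*∆ *trf4*∆ and 316 in *trf4*∆. Log2 ratios are without pseudocount, over nuclear ORFs above 0 in both libraries. Intervals are exact (Clopper-Pearson for ratios, conditional odds ratio for pairs). No p-value is printed, since each strain has 1 library. The members and lists were chosen with earlier results of these data known. Named genes were the members, the deleted genes, the 2 highest and 2 lowest ratios of each list, genes whose role is tied to a member, the nearest ORF and the flanking genes. *PHO80* is named beside them, chosen after its value was seen. Alternatives were other scalings (median ORF density, a 30% trimmed mean, equal sums), a pseudocount (0.01 or 0.1), a minimum mean density (0.05), and folds of 1.5 and 4. Sequences and coordinates are from RefSeq R64, and unique positions were counted by exact matching and with bwa 0.7.19. Functions were tested on simulated data. The tools were SciPy 1.17.1, pandas 2.3.3 and NumPy 2.4.6 under Python 3.11.15, with figures by matplotlib 3.10.9.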

Additional observations from a re-analysis of the deposited data

How the results depend on the processing

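No value of a member changed direction in 30 recomputations (3 other scalings and 2 pseudocounts for 6 genes). A pseudocount cannot change a direction, and each scaling shifts all members by the same amount. The largest of these shifts, -0.94, is smaller in size than the lowest log2 ratio, 1.55. Of the 30 values, 12 stayed within the counting interval of the main value and 18 moved outside it. The median log2 ratio of the 6 members, 2.15, was 1.21 after scaling to the same median ORF density, 1.36 with the 30% trimmed mean and 1.68 with a pseudocount of 0.1, which shrinks the ratios of low genes by construction. The number of members at least 2-fold higher was 6, or 5 under the median and the trimmed mean. With a mean density of at least 0.05 the share of ORFs at least 2-fold higher was 40.7%. Depth limits the order of *PCL2* and *PCL9* in *trf4*∆, which rest on 151 and 144 reads. No paired analysis was possible because each strain has 1 library.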

Other observations

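The 16 ORFs with 3 or more SCB matches (CACGAAA or CGCGAAA) in their 800 upstream bases and reads in both libraries had a median log2 ratio of 1.54. The medians were 0.73 over 90 ORFs with 2 matches, 0.69 over 865 with 1 and 0.81 over 4659 with none. *CLN2* and *PCL1* are among the 16. Over the other 14 the median was 1.27, and 9 of the 14 were at least 2-fold higher in *xrn1*∆ *trf4*∆, where 40.1% of all ORFs and 40.9% of those without a match were. *SPC42* (2.17) and *CSI2* (2.04) led them, while *SCW10* (-0.19), *HSL1* (-0.28) and *RNR3* (-0.48) were lower in *xrn1*∆ *trf4*∆. *HO*, the mating-type switching endonuclease, held the most matches, 8, with a log2 ratio of 1.23. Some of the 16 share an upstream region with a neighbour and are not separate observations, such as *BBP1* and *CLN2*. *BBP1* is among the 14, so these are not fully separate from the members. The letters were chosen after the ratios were known, and with CTCGAAA and CCCGAAA also counted as matches, the median was 0.71 over 45 ORFs with 3 or more, so the difference was not seen with the wider letters.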
